A study of Mus musculus with 9 samples.

Results

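The nitric oxide synthase, arginine and polyamine genes described here are 8 mouse genes, picked by symbol: Nos2, Ass1, Slc7a1, Slc7a2, Odc1, Srm, Sms and Oaz1. All 8 were found by Ensembl identifier among the 53801 genes of the deposited count table, and all 8 were among the 12538 protein-coding genes that passed the filter on low counts and were tested. Each of the 9 libraries holds polyA RNA from CD11b+ cells sorted by flow cytometry out of the tumor-bearing brain hemisphere of male C57BL/6J mice aged 10 to 12 weeks when the study began, all of which carried GL261 glioma cells that express tdTomato and luciferase. There were 2 CTR libraries (mice given saline), 2 OAT-1746 libraries (50 mg/kg by mouth), 2 anti-PD-1 libraries (2.5 mg/kg into the peritoneum) and 3 COMB libraries (both agents). OAT-1746 is an arginase inhibitor, and anti-PD-1 is an antibody against a checkpoint receptor of T cells. Cells were taken on day 28 by the study's methods and on day 21 by a figure legend, and 1 library, titled as replicate 2 of anti-PD-1, lists anti-PD-2 as its treatment and was grouped by title. The comparisons ask how each agent and both together shift these genes against CTR, what each agent adds to the other, and whether the effect of OAT-1746 depends on anti-PD-1.

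Arginase splits arginine into ornithine and urea, while nitric oxide synthase turns the same arginine into nitric oxide and citrulline, so the enzymes draw on a common substrate. Ornithine feeds the polyamines putrescine, spermidine and spermine, small charged molecules that cells need for growth and translation, and citrulline can be rebuilt into arginine. The inducible nitric oxide synthase is known from inflammatory macrophages, and T cells are known to need arginine.

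The count tables held 17490386 and 17729568 counts in CTR replicates 1 and 2, 17380045 and 16784406 in OAT-1746, 14356928 and 18796479 in anti-PD-1, and 13048075, 16144518 and 14806017 in COMB replicates 1, 2 and 3. Levels are given as CPM, counts scaled by library size and trimmed-mean factors, listed in the order of the replicate numbers, and they measure transcripts, not enzyme activity. OAT-1746 replicate 2 stood apart: the median Pearson correlation of its log2 CPM with the other libraries was 0.927, against 0.970 to 0.979 for the other 8 libraries, so the main results that involve OAT-1746 are given with and without it. The summed level of 8 monocyte and macrophage markers (all 8 tested) was 2652 and 3106 CPM in CTR, 3018 and 451 CPM in OAT-1746, 3548 and 3786 CPM in anti-PD-1, and 2152, 2259 and 2433 CPM in COMB. OAT-1746 replicate 2 was the lowest of the 9 libraries on this list, with its most abundant gene, Plac8, at 63.5 CPM there and at 345 to 1014 CPM in the other libraries. The defining marker Ccr2 was not at 0 in any library and was counted 1079 times in OAT-1746 replicate 2. The 7 microglia markers (all 7 tested) summed to 5639 and 9716 CPM in CTR, 13151 and 16494 CPM in OAT-1746, 8272 and 7379.6 CPM in anti-PD-1, and 10631, 7876 and 7371 CPM in COMB, highest in OAT-1746 replicate 2, with Tmem119 the most abundant on average at 1436 to 4098 CPM and the defining marker P2ry12 counted at least 22745 times in each library. COMB replicates 2 and 3 were the most alike pair within a group, with a chi-square per degree of freedom of 8.10 between their counts, against 34.6 to 93.5 for the other within-group pairs. The sorted population was checked with 5 CD11b-gate markers (all 5 tested), whose sum was 8516 and 10122 CPM in CTR, 11907 and 13042 CPM in OAT-1746, 9296 and 9451 CPM in anti-PD-1, and 10795, 9136 and 9622 CPM in COMB, and Itgam, which encodes CD11b, was present in all 9 libraries at 294 to 446 CPM. Less Csf1r, the most abundant, the sum was 2217.5 and 2282.9 CPM in CTR and 1968.5 and 1490.3 CPM in OAT-1746. It was then 2012.8 and 2251.1 CPM in anti-PD-1, and 1945.8, 2209.9 and 2176.2 CPM in COMB. The median log2 fold change of the 5 in OAT-1746 against CTR was -0.56, with 2 above 0, and -0.31 without OAT-1746 replicate 2.

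Promoter entries were available for 5 of the 8 genes, 7 entries in all, each of 300 bases from 250 before to 50 after a start, from RefSeq on GRCm38.p6; Nos2, Slc7a2 and Srm had none. Searched on both strands were CACGTG (an E-box), TTCNNNGAA, TGAGTCA, TTGCGCAA, TGATGNAA and an NF-kB motif, and of 32851 promoters of 300 bases they were held by 7.15%, 8.30%, 5.20%, 0.183%, 3.97% and 9.38% in that order. Shown, with matches in capitals, are Oaz1 and the enzyme genes Ass1, Odc1 and Sms (of 2 Sms entries, the upstream one). Oaz1 was the only gene among these 5 to pass edgeR's adjusted p of 0.05 in COMB over OAT-1746, where all 5 were higher. The windows lie at chr2:31470020-31470319 (plus strand), chr12:17544623-17544922 (plus strand), chrX:157492238-157492537 (minus strand) and chr10:80826406-80826705 (plus strand), each written 5′ to 3′ on the gene's strand.
Ass1: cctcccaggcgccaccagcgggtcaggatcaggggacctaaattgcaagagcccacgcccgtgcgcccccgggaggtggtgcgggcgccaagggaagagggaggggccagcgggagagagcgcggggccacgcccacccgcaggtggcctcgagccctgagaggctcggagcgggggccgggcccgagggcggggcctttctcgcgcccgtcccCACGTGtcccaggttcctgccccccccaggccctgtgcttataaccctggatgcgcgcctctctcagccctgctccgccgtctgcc
Odc1: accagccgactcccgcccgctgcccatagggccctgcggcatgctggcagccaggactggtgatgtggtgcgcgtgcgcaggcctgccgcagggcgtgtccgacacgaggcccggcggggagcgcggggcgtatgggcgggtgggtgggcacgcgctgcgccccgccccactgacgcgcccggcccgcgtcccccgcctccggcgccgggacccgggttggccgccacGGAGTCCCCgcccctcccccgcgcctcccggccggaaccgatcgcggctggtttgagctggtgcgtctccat
Sms: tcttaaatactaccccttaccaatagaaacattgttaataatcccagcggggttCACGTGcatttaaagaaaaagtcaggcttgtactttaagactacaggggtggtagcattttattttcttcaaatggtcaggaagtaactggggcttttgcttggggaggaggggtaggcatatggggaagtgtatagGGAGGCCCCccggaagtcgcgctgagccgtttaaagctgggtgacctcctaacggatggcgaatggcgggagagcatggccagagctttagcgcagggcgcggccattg
Oaz1: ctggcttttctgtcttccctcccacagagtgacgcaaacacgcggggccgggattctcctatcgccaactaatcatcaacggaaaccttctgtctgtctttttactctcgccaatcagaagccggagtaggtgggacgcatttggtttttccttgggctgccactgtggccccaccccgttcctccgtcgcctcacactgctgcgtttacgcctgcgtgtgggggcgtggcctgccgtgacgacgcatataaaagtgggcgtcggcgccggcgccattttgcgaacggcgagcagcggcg
The Ass1 window held CACGTG from position -36 relative to the start, the Odc1 window held the NF-kB motif on the reverse strand from -22, and the upstream Sms window held CACGTG from -196 and the NF-kB motif on the reverse strand from -59, with no overlap between the matches. None of the 6 motifs was found in the Oaz1 window. Of the entries not shown, the windows of Slc7a1 held TTCNNNGAA from -146 (chr5:148392766-148393065) and TGAGTCA on the reverse strand from -123 (chr5:148399855-148400154), and the other Sms window held the NF-kB motif from -102 (chrX:157491319-157491618). A match is a description of letters in a window and says nothing of binding.

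Differences below are log2 fold changes from edgeR's quasi-likelihood test on all 9 libraries, with p-values adjusted by the Benjamini-Hochberg method over all 12538 genes, and a gene is called at an adjusted p below 0.05. The comparisons share libraries: CTR serves as control for each of the 3 treated groups, OAT-1746 stands in both of its comparisons, and the interaction, the COMB minus anti-PD-1 difference less the OAT-1746 minus CTR difference, uses all 9 libraries. In bulk RNA from sorted cells, fewer cells of a type and less RNA per cell cannot be told apart. In fits that leave a group with 1 library, that library is assumed to vary like the other groups.

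**Figure D1:**
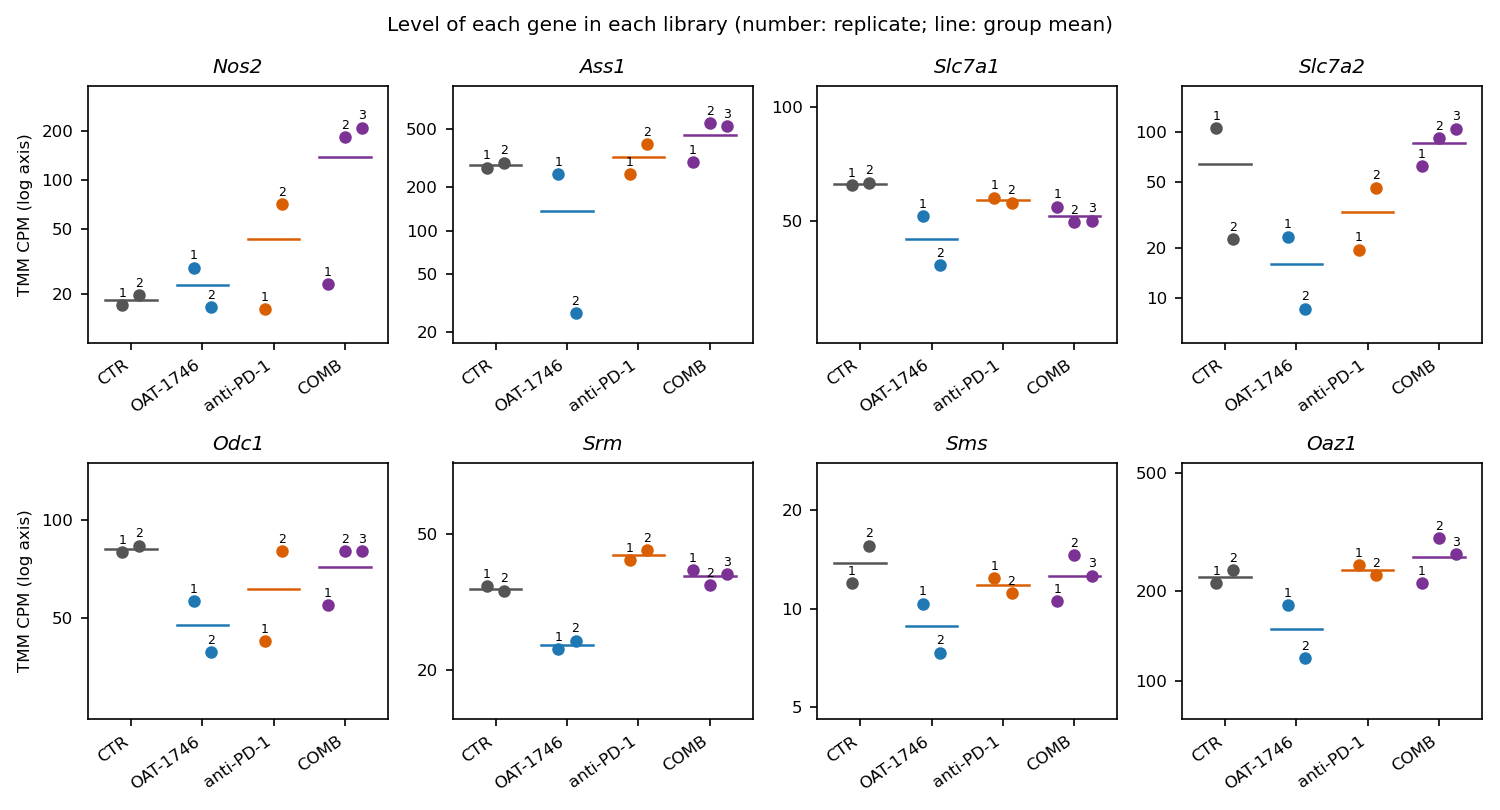
Level of each of the 8 genes in each library (CPM, log axis), with the replicate number beside each point and a line at the group mean. Nos2 and Ass1 are highest in COMB replicates 2 and 3, and Ass1 is lowest in OAT-1746 replicate 2.

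Nos2 (ENSMUSG00000020826, chr11:78920787-78960254, plus strand) encodes the inducible nitric oxide synthase. Libraries read 16.9 and 19.5 CPM in CTR, 28.9 and 16.5 CPM in OAT-1746, 16.03 and 70.9 CPM in anti-PD-1, and 23.0, 184 and 210.2 CPM in COMB. COMB replicates 2 and 3 were highest, anti-PD-1 replicate 2 came next, and the remaining 6 libraries, COMB replicate 1 among them, lay between 16.03 and 28.9 CPM. Group means (± SD) were 139 ± 101 CPM (n = 3) in COMB, 43.5 ± 38.8 CPM (n = 2) in anti-PD-1, 22.7 ± 8.80 CPM (n = 2) in OAT-1746 and 18.2 ± 1.83 CPM (n = 2) in CTR. COMB exceeded CTR in Nos2 by 2.93 (SE 0.91, unadjusted p 0.0105), and all 3 COMB libraries were above both CTR libraries, with an adjusted p of 0.712 by edgeR, 0.274 by DESeq2 and a range of 2.49 to 3.41 over single libraries left out. Of all tested genes, 12.1% had all COMB libraries above both CTR libraries and 15.8% had all below. Over OAT-1746 the COMB difference was 2.61 (SE 0.90), with an adjusted p of 0.0723 by edgeR and 0.0377 by DESeq2. It was 3.08 without COMB replicate 1, where edgeR called it, and 2.27 without OAT-1746 replicate 2, where it did not, and over all alternatives its adjusted p ran from 0.0175 to 0.333.

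Between anti-PD-1 and CTR, Nos2 differed by 1.26 (SE 0.91, edgeR adjusted p 0.967), and without anti-PD-1 replicate 2 the difference turned to -0.19. OAT-1746 differed from CTR in Nos2 by 0.32 (SE 0.91, edgeR adjusted p 0.828), which turned to -0.15 without OAT-1746 replicate 1 and was 0.68 without OAT-1746 replicate 2. In COMB over anti-PD-1, Nos2 was 1.67 higher (SE 0.85, edgeR adjusted p 0.722), and 0.97 without anti-PD-1 replicate 1 or 3.12 without anti-PD-1 replicate 2.

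**Figure D2:**
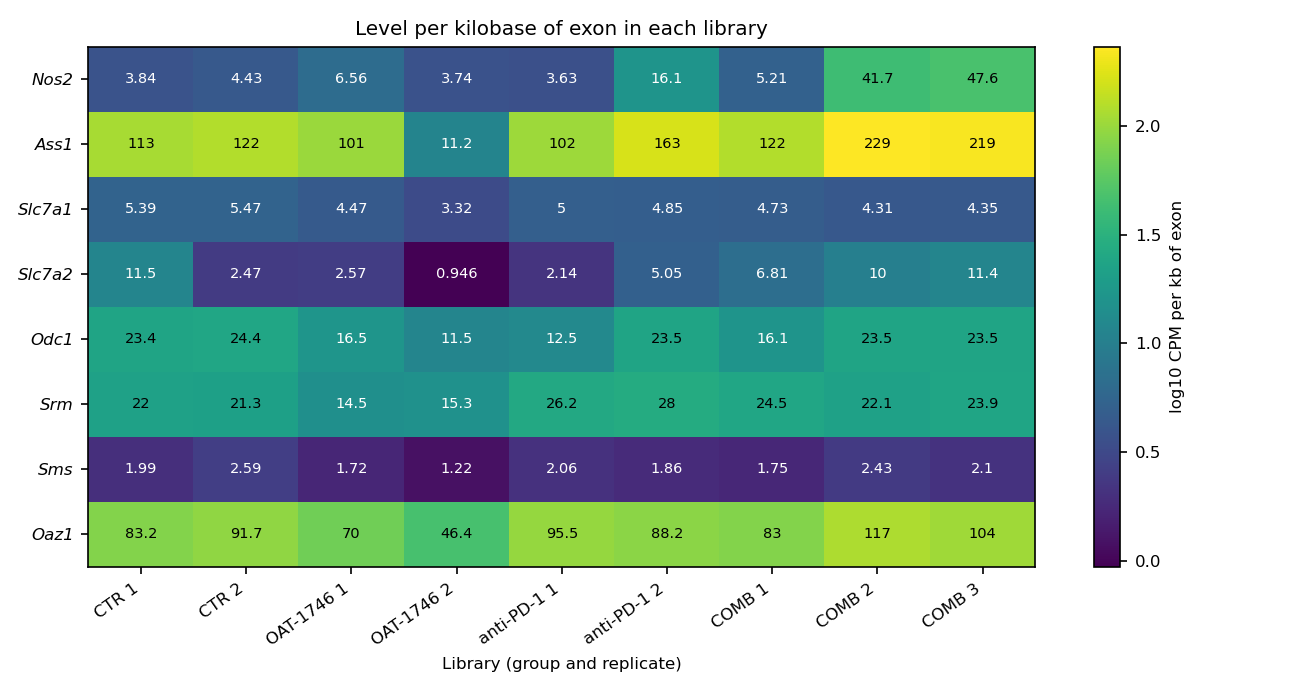
Level of each gene in each library in CPM per kb of merged exon, printed in each cell and colored by its log10, the scale on which genes can be set side by side. Ass1 and Oaz1 lie highest in most libraries and Sms lowest in most.

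Ass1 (ENSMUSG00000076441, chr2:31470207-31520672, plus strand) encodes argininosuccinate synthase, which joins citrulline to aspartate on the way back to arginine, and its promoter window carried the E-box letters. The level was 272 and 295 CPM in CTR, 244 and 27.0 CPM in OAT-1746, 246 and 394 CPM in anti-PD-1, and 295, 554 and 529 CPM in COMB. COMB replicates 2 and 3 were highest, OAT-1746 replicate 2 was lowest by a wide margin, and the other 6 libraries lay between 244 and 394 CPM. All COMB libraries lay above both OAT-1746 libraries in 25.03% of all tested genes and below both in 28.93%. COMB exceeded OAT-1746 in Ass1 by 1.76 (SE 0.73) with 3 of 3 COMB libraries above both OAT-1746 libraries, and edgeR's adjusted p was 0.114. The value was 0.92 without OAT-1746 replicate 2 and 4.10, then called, without OAT-1746 replicate 1. Limma with voom and sample weights gave 2.65 for Ass1 and called it (adjusted p 0.0214). OAT-1746 differed from CTR in Ass1 by -1.07 (SE 0.76, edgeR adjusted p 0.343), but by -0.20 without OAT-1746 replicate 2 and by -3.40, then called, without OAT-1746 replicate 1. The summed monocyte and macrophage markers were also lower in OAT-1746 replicate 2, at 451 CPM against 3018 CPM in replicate 1. Other libraries did not share this order. COMB replicates 2 and 3, highest in Ass1, had marker sums of 2259 and 2433 CPM, and anti-PD-1 replicate 1, with Ass1 at 246 CPM, had 3548 CPM. The part of these markers in the result was not tested. COMB against CTR gave 0.70 for Ass1 (SE 0.70, edgeR adjusted p 0.850), with a range of 0.54 to 0.91 over single libraries left out.

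Slc7a1 (ENSMUSG00000041313, chr5:148327410-148399904, minus strand) encodes the widely expressed carrier for arginine and other cationic amino acids. Among the libraries it read 62.2 and 63.1 CPM in CTR, 51.6 and 38.3 CPM in OAT-1746, 57.7 and 55.9 CPM in anti-PD-1, and 54.6, 49.7 and 50.1 CPM in COMB. Both CTR libraries were the highest, OAT-1746 replicate 2 was the lowest, and all 9 libraries lay between 38.3 and 63.1 CPM. In OAT-1746 against CTR the difference was -0.48 (SE 0.16, unadjusted p 0.0162), with an edgeR adjusted p of 0.0943. It was lower in 2 of 2 libraries, as were 32.12% of all tested genes, while 30.81% had both OAT-1746 libraries above both CTR libraries. The difference kept its sign in the fits without either OAT-1746 library. It was -0.27 without OAT-1746 replicate 2 and -0.71, then called, without OAT-1746 replicate 1. COMB and OAT-1746 differed by 0.20 (SE 0.15, edgeR adjusted p 0.367), and by 0.01 without OAT-1746 replicate 2.

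Slc7a2 (ENSMUSG00000031596, chr8:40862396-40922308, plus strand) encodes the related carrier that activated macrophages are known to use for arginine uptake. Its values were 105 and 22.5 CPM in CTR, 23.5 and 8.64 CPM in OAT-1746, 19.6 and 46.2 CPM in anti-PD-1, and 62.2, 91.7 and 104 CPM in COMB. CTR replicate 1 and COMB replicates 2 and 3 were highest, OAT-1746 replicate 2 was lowest, and the CTR replicates lay more than 4-fold apart. Group means (± SD) were 86.1 ± 21.6 CPM (n = 3) in COMB, 63.6 ± 58.1 CPM (n = 2) in CTR, 32.9 ± 18.8 CPM (n = 2) in anti-PD-1 and 16.05 ± 10.5 CPM (n = 2) in OAT-1746. Slc7a2 rose in COMB over OAT-1746 by 2.42 (SE 0.70, 95% confidence interval 0.85 to 3.99, 5.36-fold) in 3 of 3 COMB libraries, with an adjusted p of 0.0463 by edgeR and 0.0156 by DESeq2. The call ended without OAT-1746 replicate 2 (1.89), COMB replicate 2 (2.38), COMB replicate 3 (2.26), or either anti-PD-1 library (2.43 each), and over all alternatives the adjusted p ran from 0.0156 to 0.235. It also ended with replicate number as a block (adjusted p 0.222), in the fit of only the groups compared (0.0765) and with edgeR's robust estimation (0.0591).

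In OAT-1746 against CTR, Slc7a2 differed by -1.99 (SE 0.72, unadjusted p 0.0216, edgeR adjusted p 0.104), and the groups overlapped. The value was -0.48 without CTR replicate 1, -1.43 without OAT-1746 replicate 2 and -2.89, then called, without OAT-1746 replicate 1. COMB exceeded anti-PD-1 in Slc7a2 by 1.39 (SE 0.66, edgeR adjusted p 0.708), with 3 of 3 COMB libraries above both anti-PD-1 libraries. This difference was 0.90 and 2.14 without anti-PD-1 replicates 1 and 2 in turn. All COMB libraries lay above both anti-PD-1 libraries in 10.03% of all tested genes and below both in 16.37%. The interaction for Slc7a2 was 3.37 (SE 0.97), with an adjusted p of 0.108 by edgeR and 0.0479 by DESeq2, and it was 1.90 without CTR replicate 1, 2.84 without OAT-1746 replicate 2 and 4.27, then called, without OAT-1746 replicate 1. Per kb of exon, the ratio of Slc7a1 to Slc7a2 was 0.470 and 2.22 in CTR, 1.74 and 3.51 in OAT-1746, 2.33 and 0.960 in anti-PD-1, and 0.695, 0.430 and 0.381 in COMB. The carrier with the higher level differed between libraries, Slc7a2 in CTR replicate 1, anti-PD-1 replicate 2 and all 3 COMB libraries, and Slc7a1 in CTR replicate 2, anti-PD-1 replicate 1 and both OAT-1746 libraries.

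Odc1 (ENSMUSG00000011179, chr12:17544794-17551505, plus strand) encodes ornithine decarboxylase, which makes putrescine from ornithine. It stood at 79.7 and 83.2 CPM in CTR, 56.2 and 39.2 CPM in OAT-1746, 42.4 and 80.1 CPM in anti-PD-1, and 54.7, 80.0 and 80.1 CPM in COMB. Both OAT-1746 libraries were below both CTR libraries, as in 32.12% of all tested genes. The lowest anti-PD-1 and COMB libraries fell in the OAT-1746 range. OAT-1746 differed from CTR in Odc1 by -0.77 (SE 0.31, unadjusted p 0.0343), with an edgeR adjusted p of 0.128, and by -0.52 without OAT-1746 replicate 2. COMB exceeded OAT-1746 by 0.59 (SE 0.29, edgeR adjusted p 0.168), and by 0.36 without OAT-1746 replicate 2.

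Srm (ENSMUSG00000006442, chr4:148591503-148594993, plus strand) encodes spermidine synthase, which adds a propyl-amine group to putrescine. Its level was 35.1 and 34.1 CPM in CTR, 23.1 and 24.4 CPM in OAT-1746, 41.9 and 44.7 CPM in anti-PD-1, and 39.2, 35.4 and 38.1 CPM in COMB. The OAT-1746 libraries were the lowest of the 9 and nearly equal, the anti-PD-1 libraries were the highest, and OAT-1746 overlapped with no other group. Group means (± SD) were 43.3 ± 2.03 CPM (n = 2) in anti-PD-1, 37.6 ± 1.96 CPM (n = 3) in COMB, 34.6 ± 0.724 CPM (n = 2) in CTR and 23.8 ± 0.938 CPM (n = 2) in OAT-1746. Srm rose in COMB over OAT-1746 by 0.66 (SE 0.13, 95% confidence interval 0.37 to 0.95, 1.58-fold) in 3 of 3 COMB libraries, with an adjusted p of 0.0239 by edgeR and 0.000441 by DESeq2. The size held at 0.71 without OAT-1746 replicate 2, 0.70 without COMB replicate 2 and 0.66 without COMB replicate 3, yet the gene was not called in any of these 3 fits, and over all alternatives the adjusted p ran from 0.000441 to 0.217. Nor was Srm called with replicate number as a block (adjusted p 0.217) or in the fit of only the groups compared (0.0788).

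Both OAT-1746 libraries were below both CTR libraries in Srm, as in 32.12% of all tested genes. OAT-1746 differed from CTR in Srm by -0.54 (SE 0.14, unadjusted p 0.00343), with an adjusted p of 0.0689 by edgeR and 0.0178 by DESeq2. Without OAT-1746 replicate 2 this difference was -0.57. Anti-PD-1 exceeded CTR in Srm by 0.32 (SE 0.14, unadjusted p 0.0429), with an edgeR adjusted p of 0.951 and a range of 0.27 to 0.37 over single libraries left out. The Srm difference of COMB from anti-PD-1 was -0.21 (SE 0.12, edgeR adjusted p 0.765), with 3 of 3 COMB libraries below both anti-PD-1 libraries and a range of -0.26 to -0.15 over single libraries left out.

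Sms (ENSMUSG00000071708, chrX:157443855-157492287, minus strand) encodes spermine synthase, which extends spermidine. The libraries gave 11.95 and 15.6 CPM in CTR, 10.4 and 7.32 CPM in OAT-1746, 12.4 and 11.2 CPM in anti-PD-1, and 10.5, 14.6 and 12.6 CPM in COMB. Both OAT-1746 libraries were the lowest of the 9, and the other groups overlapped. Of all tested genes, 32.12% had both OAT-1746 libraries below both CTR libraries. In OAT-1746 against CTR, Sms differed by -0.64 (SE 0.24, unadjusted p 0.0273), with an edgeR adjusted p of 0.115. The difference was -0.40 without OAT-1746 replicate 2 and -0.91, then called, without OAT-1746 replicate 1. COMB exceeded OAT-1746 in Sms by 0.51 (SE 0.23, edgeR adjusted p 0.135), and by 0.29 without OAT-1746 replicate 2.

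Oaz1 (ENSMUSG00000035242, chr10:80826656-80829290, plus strand) encodes antizyme, which binds ornithine decarboxylase and hands it to the proteasome, so it acts as the brake of polyamine synthesis; its promoter window held none of the 6 motifs. Its level was 213 and 235 CPM in CTR, 179 and 119 CPM in OAT-1746, 244 and 226 CPM in anti-PD-1, and 212, 300.4 and 266 CPM in COMB. Both OAT-1746 libraries were the lowest of the 9 and COMB replicates 2 and 3 the highest. Group means (± SD) were 259.7 ± 44.4 CPM (n = 3) in COMB, 235 ± 13.2 CPM (n = 2) in anti-PD-1, 224 ± 15.5 CPM (n = 2) in CTR and 149 ± 42.7 CPM (n = 2) in OAT-1746. Oaz1 rose in COMB over OAT-1746 by 0.80 (SE 0.22, 95% confidence interval 0.32 to 1.29, 1.74-fold) in 3 of 3 COMB libraries, with an adjusted p of 0.0410 by edgeR and 0.00522 by DESeq2. The call ended without OAT-1746 replicate 2 (0.55), COMB replicate 2 (0.69), COMB replicate 3 (0.78), CTR replicate 1 (0.82), CTR replicate 2 (0.81) or either anti-PD-1 library (0.81 each), with adjusted p from 0.00522 to 0.229 over all alternatives. Oaz1 was also not called with replicate number as a block (0.229) or in the fit of only the groups compared (0.0931). OAT-1746 differed from CTR in Oaz1 by -0.59 (SE 0.23, unadjusted p 0.0313, edgeR adjusted p 0.122), by -0.31 without OAT-1746 replicate 2, and by -0.92, then called, without OAT-1746 replicate 1. Per kb of exon, Odc1 was below Oaz1 in all 9 libraries, with a ratio of 0.281 and 0.266 in CTR, 0.236 and 0.248 in OAT-1746, 0.131 and 0.267 in anti-PD-1, and 0.194, 0.200 and 0.226 in COMB. CTR and OAT-1746 libraries held ratios from 0.236 to 0.281, anti-PD-1 replicate 1 had the lowest ratio, and the 3 COMB libraries lay below every CTR and OAT-1746 library.

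**Figure D3:**
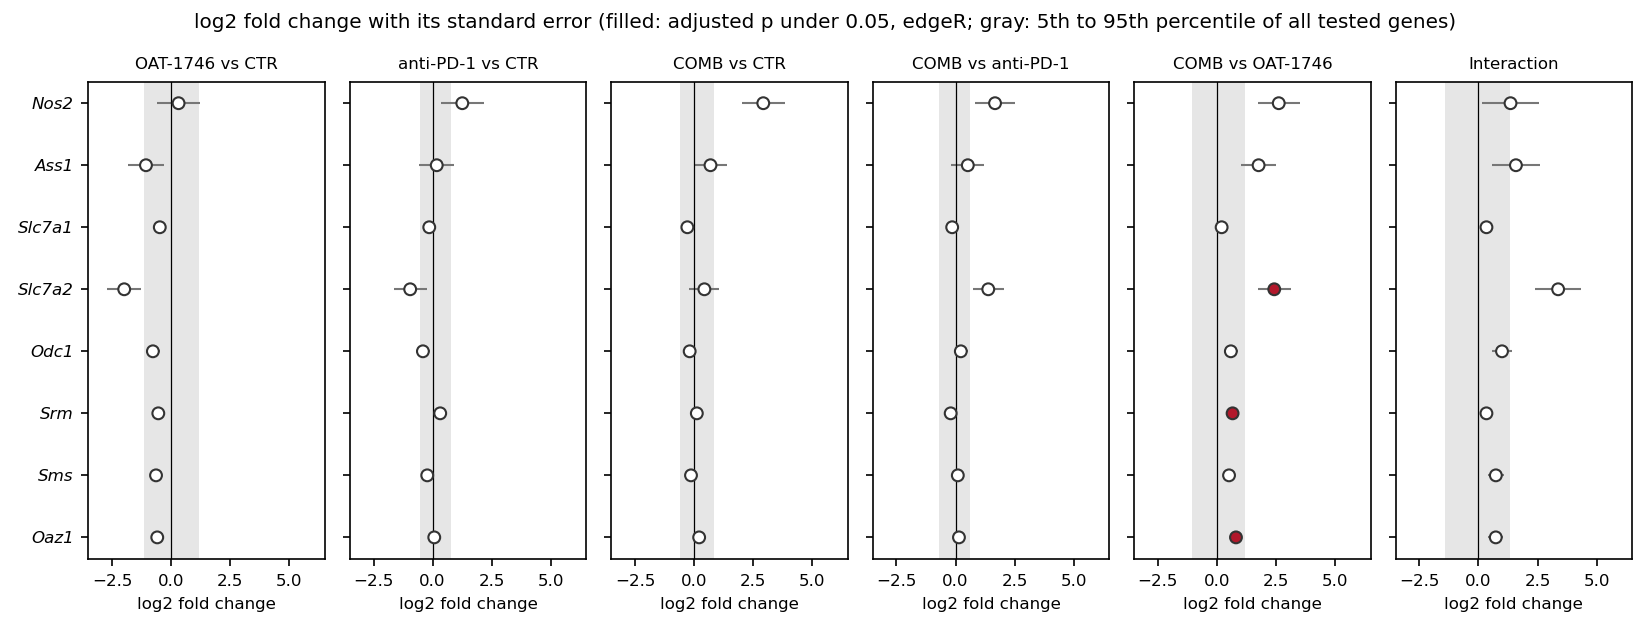
Log2 fold change of each gene in each comparison, with its standard error, filled past an adjusted p of 0.05 by edgeR, over a gray band from the 5th to the 95th percentile of all tested genes. Slc7a2, Srm and Oaz1 are past it in COMB against OAT-1746, where all 8 genes lie above 0.

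OAT-1746 against CTR asks what the arginase inhibitor does on its own. By edgeR's quasi-likelihood test, 0 of the 8 genes and 0 of 12538 genes (0%) passed an adjusted p of 0.05. At an unadjusted p below 0.05, 6 of the 8 (Slc7a1, Slc7a2, Odc1, Srm, Sms and Oaz1) passed, all lower in OAT-1746, beside 4049 of all genes (32.3%), 2013 higher and 2036 lower. DESeq2 called 1 of the 8, Srm, and 1996 genes in all. The median over the 8 genes was -0.61 against 0.01 over all tested genes, and 7 of the 8 were below 0, Nos2 being the exception. Without OAT-1746 replicate 1, so that replicate 2 alone stands for the group, edgeR called 5 of the 8 (Ass1, Slc7a1, Slc7a2, Sms and Oaz1) and 3617 genes, while without replicate 2 it called 0 of the 8 and 0 genes, with 1 of the 8 and 1877 of all genes at an unadjusted p below 0.05 and a median of -0.35 over the 8. Without COMB replicate 1, which enters only through the shared filter, scaling and estimate of the spread, 0 of the 8 and 278 genes were called.

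Anti-PD-1 against CTR asks what the antibody does on its own. Here 0 of the 8 genes and 0 of 12538 (0%) passed edgeR's adjusted p, and 1 of the 8, Srm, passed the unadjusted one, higher in anti-PD-1, beside 642 of all genes (5.12%). DESeq2 called 0 of the 8 and 14 genes in all. The median over the 8 genes was -0.04 against 0.02 over all tested genes. It turned to 0.057 without CTR replicate 1 and 0.055 without CTR replicate 2, and was -0.17 without anti-PD-1 replicate 2.

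COMB against CTR asks what both agents do together. By edgeR, 0 of the 8 genes and 0 of 12538 (0%) passed the adjusted p, while 1 of the 8, Nos2, was higher in COMB at an unadjusted p below 0.05, beside 825 of all genes (6.58%). DESeq2 called 0 of the 8 and 35 genes in all. Across the 8 genes the median was 0.17, against 0.00 over all tested genes (-0.0048), and 5 were above 0. Without CTR replicate 2 the median over the 8 was 0.08.

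COMB against anti-PD-1 asks what OAT-1746 adds to the antibody. With edgeR, 0 of the 8 genes and 0 of 12538 (0%) passed the adjusted p, and 0 of the 8 passed the unadjusted one, beside 907 of all genes (7.23%). DESeq2 called 0 of the 8 and 47 genes in all. The median of the 8 was 0.18 against -0.01 over all tested genes, and 6 were above 0. That median was 0.43 without anti-PD-1 replicate 2 and 0.08 without COMB replicate 2. EdgeR called 41 genes without OAT-1746 replicate 2 and 52 without OAT-1746 replicate 1, libraries that enter here only through the shared filter, scaling and estimate of the spread, and 5 without anti-PD-1 replicate 1, with 0 of the 8 genes in each of these fits.

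COMB against OAT-1746 asks what the antibody adds to the inhibitor. EdgeR called 3 of the 8 genes, Slc7a2, Srm and Oaz1, all higher in COMB, beside 1979 of 12538 genes (15.8%), 858 higher and 1121 lower. At an unadjusted p below 0.05 it was 5 of the 8 (Nos2, Ass1, Slc7a2, Srm and Oaz1), all higher, beside 4651 of all genes (37.1%). All 8 genes were above 0, with a median of 0.73 against 0.00 over all tested genes (0.0029). DESeq2 called 4 of the 8, the same 3 and Nos2, and 3062 genes in all. Leaving out OAT-1746 replicate 2 left 0 of the 8 genes and 27 of all genes (unadjusted, 4 and 2488, with a median of 0.63 over the 8), leaving out COMB replicate 2 left 0 and 14, and leaving out COMB replicate 3 left 0 and 5. Without OAT-1746 replicate 1 the counts were 4 of the 8 and 4033 of all, without COMB replicate 1 they were 4 and 2923, without CTR replicate 1 2 and 734, without CTR replicate 2 2 and 808, without anti-PD-1 replicate 1 1 and 861, and without anti-PD-1 replicate 2 1 and 927. With replicate number as a block, which leaves COMB replicate 3 with a term of its own, 0 of the 8 and 2 of all genes were called.

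The interaction asks whether the effect of OAT-1746 differs with and without anti-PD-1. EdgeR called 0 of the 8 genes, beside 45 of 12538 (0.359%), 1 positive and 44 negative. At an unadjusted p below 0.05, 3 of the 8 (Slc7a2, Odc1 and Oaz1) passed, all positive, beside 3281 of all genes (26.2%). DESeq2 called 1 of the 8, Slc7a2, and 1025 genes in all. All 8 were above 0, with a median of 0.87 against -0.02 over all tested genes. Without OAT-1746 replicate 2 edgeR called 0 of the 8 and 26 of all genes (unadjusted, 1 and 2205, with a median of 0.64 over the 8), and without OAT-1746 replicate 1 it called 3 of the 8 (Ass1, Slc7a2 and Oaz1) and 2734 of all. Leaving out COMB replicate 1 gave 0 of the 8 and 424 of all genes, leaving out anti-PD-1 replicate 1 gave 0 and 35, and leaving out any of the other 5 libraries gave 0 and 0.

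**Figure D4:**
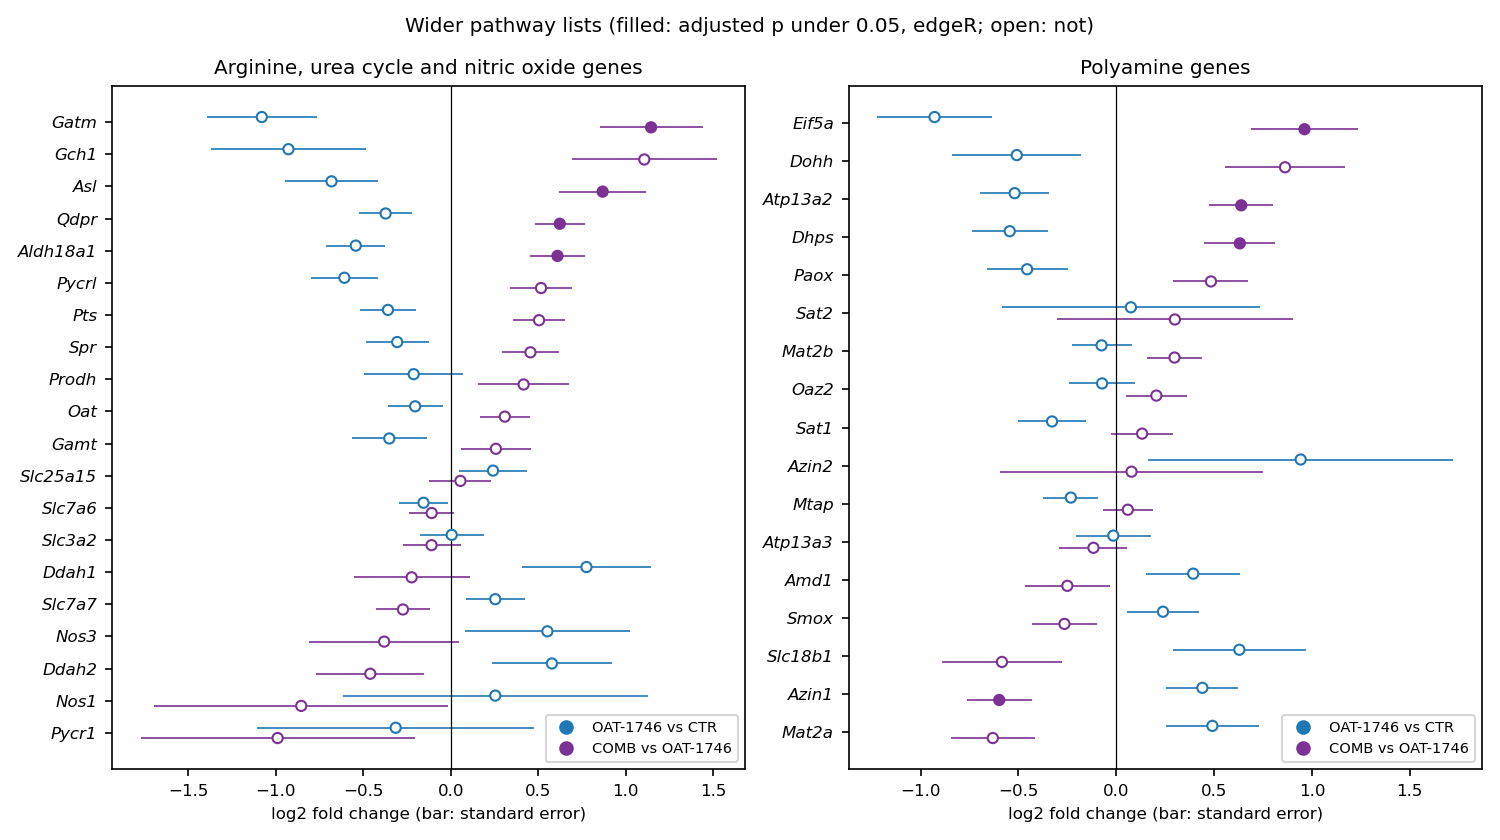
Log2 fold changes, with standard errors, of the tested genes of the wider arginine and polyamine lists in OAT-1746 against CTR and COMB against OAT-1746, filled past an adjusted p of 0.05 by edgeR. In COMB against OAT-1746, 4 of 20 arginine genes and 4 of 17 polyamine genes are past it.

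Around the 8 genes, a list of 26 further genes of arginine, urea cycle and nitric oxide metabolism had 20 tested. Otc, Cps1, Nags, Agmat, Slc25a2 and Slc7a3 fell below the filter, with at most 6, 0, 0, 0, 3 and 9 counts in any library. In COMB against OAT-1746 edgeR called 4 of the 20, all higher in COMB: Qdpr (0.62, adjusted p 0.0304), Gatm (1.14, 0.0375), Aldh18a1 (0.61, 0.0375) and Asl (0.87, 0.0465). Of all tested genes 15.8% were called in that comparison and 37.1% passed the unadjusted p, close to 4 and 8 of the 20. At an unadjusted p below 0.05 the list counted 8 higher and 0 lower in that comparison, 0 and 5 in OAT-1746 against CTR, 0 and 1 in anti-PD-1 against CTR, 0 and 0 in COMB against CTR, 2 and 0 in COMB against anti-PD-1, and 5 and 0 in the interaction, where the shares of all tested genes were 32.3%, 5.12%, 6.58%, 7.23% and 26.2% for these 5 in order. EdgeR called 0 of the 20 at the adjusted p in each of those other 5 comparisons, and the list medians were -0.26, -0.07, 0.11, 0.13 and 0.30 there and 0.28 in COMB against OAT-1746. All 4 calls in COMB against OAT-1746 ended without OAT-1746 replicate 2 (list median 0.23), COMB replicate 2 (0.22) or COMB replicate 3 (0.26). They also ended without CTR replicate 2 (0.29), and only Qdpr was still called without CTR replicate 1 or either anti-PD-1 library. Without COMB replicate 1 edgeR called 6 of the 20, beside 2923 of 12481 genes. The list median was 0.33 without OAT-1746 replicate 1. Without OAT-1746 replicate 2 the differences were 0.73 for Qdpr, 0.97 for Gatm, 0.45 for Aldh18a1 and 0.52 for Asl. The OAT-1746 against CTR median of this list ran from -0.30 to -0.19 over the 9 fits without 1 library, with 5 of the 20 (and 3617 of 12847 genes) called without OAT-1746 replicate 1 and 1 without COMB replicate 1. The interaction median ran from 0.18 to 0.37, with 4 of the 20 (and 2734 of 12847 genes) called without OAT-1746 replicate 1 and 1 without COMB replicate 1.

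Gatm encodes the amidinotransferase that moves the amidino group of arginine to glycine for creatine. Its level was 481 and 372 CPM in CTR, 229.6 and 174 CPM in OAT-1746, 219.6 and 237 CPM in anti-PD-1, and 276, 543 and 520.0 CPM in COMB. CTR and COMB replicates 2 and 3 were high, and OAT-1746 and anti-PD-1 were low, with COMB replicate 1 in between. The interaction for Gatm was 2.04, with an adjusted p of 0.0756 by edgeR and 0.000441 by DESeq2, and it was 1.87 without OAT-1746 replicate 2, where edgeR did not call it, but edgeR called it without OAT-1746 replicate 1 (2.26) and without COMB replicate 1 (2.29). Asl encodes argininosuccinate lyase, which acts next after the product of Ass1 and releases arginine. It read 36.5 and 34.6 CPM in CTR, 28.5 and 15.9 CPM in OAT-1746, 39.6 and 37.4 CPM in anti-PD-1, and 32.1, 44.8 and 44.5 CPM in COMB. Here too OAT-1746 replicate 2 was lowest and COMB replicates 2 and 3 were highest.

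A polyamine list of 20 further genes had 17 tested; Amd2, Oaz3 and Slc12a8 fell below the filter, with at most 4, 2 and 5 counts in any library. In COMB against OAT-1746 edgeR called 3 of the 17 higher, Atp13a2 (0.64, adjusted p 0.0371), Eif5a (0.96, 0.0449) and Dhps (0.63, 0.0461), and 1 lower, Azin1 (-0.60, 0.0432). These 4 of 17, and 7 of 17 at the unadjusted p, stood beside 15.8% and 37.1% of all tested genes. Unadjusted, the list counted 5 higher and 2 lower in that comparison, 1 and 3 in OAT-1746 against CTR, 0 and 0 in anti-PD-1 against CTR and in COMB against CTR, 0 and 1 in COMB against anti-PD-1, and 4 and 3 in the interaction, beside 32.3% of all tested genes in OAT-1746 against CTR, 7.23% in COMB against anti-PD-1 and 26.2% in the interaction. EdgeR called 0 of the 17 at the adjusted p in each of those other 5 comparisons, with medians of -0.07, -0.03, 0.04, 0.14 and 0.13, beside 0.13 in COMB against OAT-1746. In COMB against OAT-1746 all 4 calls ended without OAT-1746 replicate 2 (list median 0.24), COMB replicate 2 (0.10) or COMB replicate 3 (0.17). They also ended when any single CTR or anti-PD-1 library was left out (0.14 to 0.15). Without COMB replicate 1 edgeR called 5 of the 17, beside 2923 of 12481 genes. The list median was 0.09 without OAT-1746 replicate 1. Without OAT-1746 replicate 2 the differences were 0.52 for Atp13a2, 0.60 for Eif5a, 0.57 for Dhps and -0.38 for Azin1. Over the same 9 fits the polyamine median ran from -0.14 to 0.04 in OAT-1746 against CTR and from 0.05 to 0.28 in the interaction, with 5 and 4 of the 17 called without OAT-1746 replicate 1, beside 3617 and 2734 of 12847 genes.

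Azin1 encodes the antizyme inhibitor, which frees ornithine decarboxylase from the product of Oaz1. Its level was 105 and 104 CPM in CTR, 123 and 161 CPM in OAT-1746, 97.7 and 126 CPM in anti-PD-1, and 98.9, 95.7 and 86.6 CPM in COMB. OAT-1746 replicate 2 was the highest of the 9 libraries for Azin1 and the lowest for Oaz1. Eif5a encodes the translation factor that receives a hypusine made from spermidine, and Dhps the enzyme for the opening step of that change. Eif5a read 535 and 507 CPM in CTR, 355 and 192 CPM in OAT-1746, 469 and 445 CPM in anti-PD-1, and 412, 626 and 561 CPM in COMB. For Eif5a both OAT-1746 libraries were the lowest of the 9, and COMB replicates 2 and 3 were the highest.

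**Figure D5:**
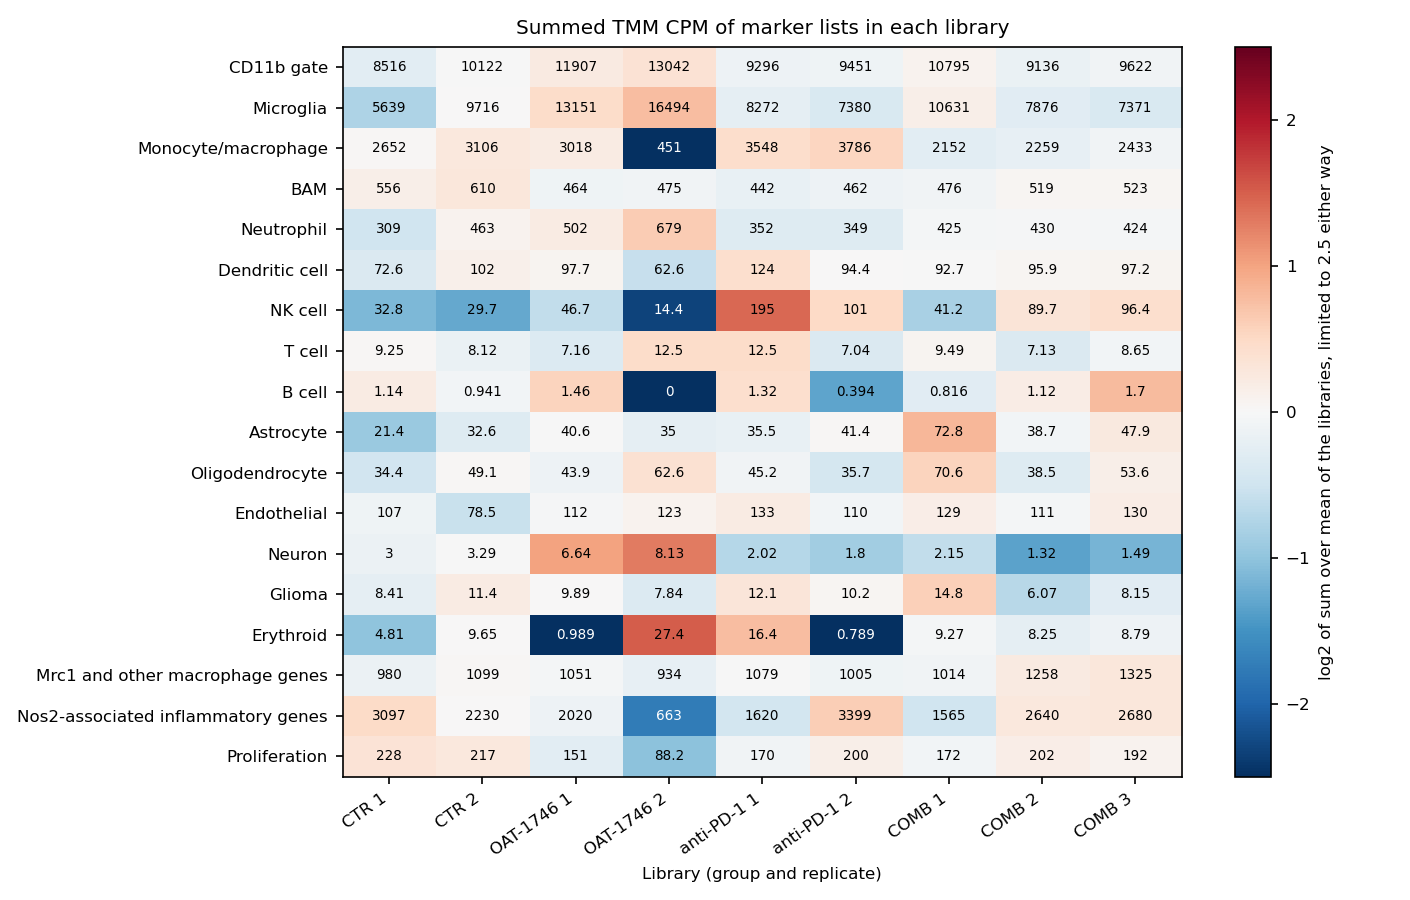
Summed level of each marker list in each library, printed in CPM and colored by log2 of the sum over the mean of the 9 libraries, limited to 2.5 either way. OAT-1746 replicate 2 is low for the monocyte and macrophage list (451 CPM) and high for the microglia list (16494 CPM).

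Since Nos2 is often read beside other macrophage genes, a list of 8 headed by Mrc1 (all 8 tested) was summed, giving 980.2 and 1099 CPM in CTR, 1051 and 934 CPM in OAT-1746, 1079 and 1005 CPM in anti-PD-1, and 1014, 1258 and 1325 CPM in COMB. Il4ra was the most abundant at 416 to 866 CPM, the defining marker Mrc1 was not at 0 in any library, and edgeR called 1 of the 8 in COMB against OAT-1746, beside 15.8% of all tested genes: Ccl17, higher by 2.03 (adjusted p 0.0202). The list median was -0.05 there, with 4 of 8 above 0, 2 higher and 1 lower at the unadjusted p, and 0.19 without OAT-1746 replicate 2. Ccl17 was not called without OAT-1746 replicate 2 (2.03), COMB replicate 2 (1.88) or COMB replicate 3 (2.11). Another 8 inflammatory genes commonly seen with Nos2 (all 8 tested) summed to 3097 and 2229.9 CPM in CTR, 2019.5 and 663 CPM in OAT-1746, 1619.9 and 3399 CPM in anti-PD-1, and 1565, 2640.4 and 2680.5 CPM in COMB. Cxcl9 was the most abundant of them at 187 to 1532 CPM, the defining marker Il1b was not at 0 in any library, and the list was lowest in OAT-1746 replicate 2 and highest in anti-PD-1 replicate 2. In COMB against OAT-1746 edgeR called 1 of these 8, beside the same 15.8%, Tnf, at -2.02 (adjusted p 0.00528), opposite in sign to Nos2 and to the list median of 0.48, with 5 of 8 above 0. At the unadjusted p, 0 of these 8 were higher and 2 lower there, beside 37.1% of all tested genes. The list median in COMB against OAT-1746 was -0.01 without OAT-1746 replicate 2 and 1.25 without OAT-1746 replicate 1. The interaction median was 0.29, with 4 of 8 above 0. The interaction median turned to -0.11 without OAT-1746 replicate 2 and to -0.09 without anti-PD-1 replicate 1. It was 1.29 without OAT-1746 replicate 1 and 1.76 without anti-PD-1 replicate 2. In COMB against CTR, where Nos2 was higher, the list median was -0.51, with 2 of 8 above 0. There 0 were higher and 2 lower at the unadjusted p, beside 6.58% of all tested genes. In COMB against anti-PD-1 the list median was -0.87, with 1 of 8 above 0. There 0 were higher and 3 lower at the unadjusted p, beside 7.23% of all tested genes. Tnf was the 1 of the 8 called by edgeR in the interaction (-1.86, adjusted p 0.0495), beside 0.359% of all tested genes. The Tnf interaction was -1.88 and not called without OAT-1746 replicate 2, ran from -2.15 to -1.49 over the 9 fits without 1 library and was called in 3 of them. In COMB against OAT-1746, Tnf was called without OAT-1746 replicate 2, at -2.05, but not without COMB replicate 3, at -1.93. Tnf read 123 and 151 CPM in CTR, 176 and 167 CPM in OAT-1746, 94.98 and 149.96 CPM in anti-PD-1, and 46.5, 43.2 and 36.9 CPM in COMB. The 3 COMB libraries were the lowest of the 9 for Tnf, COMB replicate 1 with them; Tnf and Ccl17 were picked after their values were seen.

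In COMB against OAT-1746 edgeR also called 2 of the 7 microglia markers, P2ry12 (-1.07, adjusted p 0.0383) and Sall1 (-1.06, 0.0331), both lower in COMB (Sall1 was picked after its value was seen), beside 15.8% of all tested genes, with a list median of -0.71. Without COMB replicate 1 edgeR called 5 of the 7, beside 2923 of 12481 genes. It called 0 of the 7 without COMB replicate 2 or 3, beside 14 and 5 of all genes. Without OAT-1746 replicate 2, P2ry12 was at -0.82 and Sall1 at -0.90, and neither was then called. Nor were they called without CTR replicate 1 or either anti-PD-1 library. The list medians ran from -0.90 to -0.57 over the 9 fits without 1 library. In OAT-1746 against CTR all 7 were higher at an unadjusted p below 0.05 and 0 passed the adjusted p, beside 32.3% of all tested genes at the unadjusted p, with a list median of 0.96. That median was 0.77 without OAT-1746 replicate 2 and ran from 0.60 to 1.36 over the 9 fits, with 5 of the 7, and 3617 of 12847 genes, called without OAT-1746 replicate 1. The monocyte and macrophage list had medians of -0.68 in OAT-1746 against CTR, with 8 of 8 below 0, and 0.47 in COMB against OAT-1746, with 6 of 8 above 0. Without OAT-1746 replicate 2 these medians were 0.11 and -0.28, and without OAT-1746 replicate 1 they were -2.45 and 1.83, with 8 and 6 of the 8 called, beside 3617 and 4033 of 12847 genes in that fit. Without CTR replicate 2 the OAT-1746 against CTR median was -0.33. The part of both lists in the results for the 8 genes was not tested.

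Other myeloid lists were measured too. Border-associated macrophage markers (6 of 6 tested, Mrc1 the most abundant and defining) summed to 442 to 610.4 CPM over the 9 libraries. Mrc1 was highest in OAT-1746 replicate 2 and the other 5 genes together were lowest there, at 121 CPM against 204 to 389.6 CPM in the other libraries. The list median was 0.44 in OAT-1746 against CTR and -0.41 in COMB against OAT-1746, with 0 of the 6 called in either. Over the 9 fits without 1 library these medians ran from 0.05 to 0.86 and from -0.54 to -0.14, with 3 and 2 of the 6 called without OAT-1746 replicate 1, where 3617 and 4033 of 12847 genes were called. Dendritic cell markers (6 of 6, Ccr7 the most abundant) summed to 72.6 and 102 CPM in CTR, 97.7 and 62.6 CPM in OAT-1746, 124 and 94.4 CPM in anti-PD-1, and 92.7, 95.9 and 97.2 CPM in COMB. Neutrophil markers (8 of 8, Csf3r the most abundant) summed to 309 and 463 CPM in CTR, 502 and 679 CPM in OAT-1746, 352 and 349 CPM in anti-PD-1, and 425, 429.8 and 424 CPM in COMB, with the defining marker Ly6g at no more than 1.03 CPM. OAT-1746 replicate 2 was the highest library on the neutrophil list and the lowest on the dendritic cell list, whose defining marker Flt3 was not at 0 in any library.

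The CD11b sort would remove lymphocytes, except for NK cells that carry CD11b. NK cell markers (6 of 6, Gzma the most abundant) summed to 32.8 and 29.7 CPM in CTR, 46.7 and 14.4 CPM in OAT-1746, 195 and 101 CPM in anti-PD-1, and 41.2, 89.7 and 96.4 CPM in COMB, highest in anti-PD-1, with the defining marker Ncr1 not at 0 in any library. The NK cell median was 2.32 in anti-PD-1 against CTR, with 6 of 6 higher at the unadjusted p (5.12% of all tested genes passed it) and 0 called. In COMB against OAT-1746 it was 1.08, with 6 of 6 above 0 and 0 called. There 3 of the 6 were higher at the unadjusted p, beside 37.1% of all tested genes. That median was 0.46 without OAT-1746 replicate 2 and 2.24 without OAT-1746 replicate 1. T cell markers (5 of 6 tested, Cd4 the most abundant) came to 7.04 to 12.5 CPM, with Cd3e at 0 in CTR replicate 2 and OAT-1746 replicate 1. B cell markers (2 of 2 tested, Cd79a the most abundant) came to 0 to 1.70 CPM, with Cd79a at 0 in OAT-1746 replicate 2.

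Markers of other brain and tumor cells were also measured. Astrocyte markers (4 of 4, Slc1a2 the most abundant) summed to 21.4 and 32.6 CPM in CTR, 40.6 and 35.02 CPM in OAT-1746, 35.5 and 41.4 CPM in anti-PD-1, and 72.8, 38.7 and 47.9 CPM in COMB. Oligodendrocyte markers (3 of 3, Mag) summed to 34.4 and 49.1 CPM in CTR, 43.9 and 62.6 CPM in OAT-1746, 45.2 and 35.7 CPM in anti-PD-1, and 70.6, 38.5 and 53.6 CPM in COMB. Both lists were highest in COMB replicate 1. Neuron markers (3 of 3) summed to 6.64 and 8.13 CPM in OAT-1746 and to 1.32 to 3.29 CPM in the other 7 libraries. EdgeR called 2 of the 3 neuron markers lower in COMB against OAT-1746, with a list median of -2.10, and -2.05 without OAT-1746 replicate 2. Over the 9 fits without 1 library the neuron median ran from -2.21 to -2.02. Other lists had single calls in that comparison: 1 of 8 neutrophil markers was called lower (3 of 8 were above 0), 1 of 4 astrocyte markers was called lower (3 of 4 were above 0, with a list median of 0.86), 1 of 3 glioma markers was called higher (2 of 3 were above 0) and 1 of 5 CD11b-gate markers was called higher (2 were higher and 2 lower at the unadjusted p), beside 15.8% of all tested genes. Without OAT-1746 replicate 2, 0 markers of these 5 lists were called. The astrocyte median in COMB against OAT-1746 was 0.47 without COMB replicate 1. Endothelial markers (4 of 4, Flt1) ranged over 78.5 to 133 CPM, glioma markers (3 of 4 tested, Nes) over 6.07 to 14.8 CPM and erythroid markers (3 of 3, Hbb-bs) over 0.789 to 27.4 CPM. The erythroid sum was 27.4 CPM in OAT-1746 replicate 2 and 0.989 CPM in OAT-1746 replicate 1. In OAT-1746 against CTR the erythroid median was 0.80, and it turned to -3.09 without OAT-1746 replicate 2. Proliferation genes (5 of 5, Pcna the most abundant) summed to 228 and 217 CPM in CTR, 151 and 88.2 CPM in OAT-1746, 170.0 and 200.3 CPM in anti-PD-1, and 172, 202 and 192 CPM in COMB. Their sum was lowest in OAT-1746 replicate 2, as were Ass1, Slc7a1, Slc7a2, Odc1, Sms and Oaz1, but not Nos2 or Srm. The median of the 5 proliferation genes was -1.63 in OAT-1746 against CTR, with 5 of 5 below 0 and 4 lower at the unadjusted p, and 0.86 in COMB against OAT-1746, with 5 of 5 above 0 and 3 higher at the unadjusted p, beside 32.3% and 37.1% of all tested genes. EdgeR called 0 of the 5 in either, the medians without OAT-1746 replicate 2 were -0.97 and 0.38, and those without OAT-1746 replicate 1 were -2.84 and 1.75. The part of these lists in the results was not tested.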

How the data were processed

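The deposited table holds raw counts of read pairs per gene, which the authors made by trimming with Trimmomatic, aligning to mm10 with STAR, marking duplicates with Picard and counting with HTSeq, reverse stranded, at a mapping quality of 10 or more. From these counts, protein-coding genes of the mm10 annotation (21890 of 53620 matched identifiers) that passed edgeR's filter with a minimum count of 10 were kept, leaving 12538. EdgeR 4.0.16 in R 4.3.3 fitted 1 mean for each of the 4 groups with trimmed-mean scaling and the quasi-likelihood F test, two-sided, and p-values were adjusted by the Benjamini-Hochberg method over all tested genes. The common biological coefficient of variation was 0.214. DESeq2 1.42.0, limma 3.58.1 and other settings served as alternatives. Scripts were tested on simulated counts. Of the wider lists, every gene past the adjusted p and otherwise at most the 4 smallest p per comparison could be named, and Uvrag and the others in the closing section were named by the 5 highest correlations. Some genes planned for this part and its lists are withheld and not reported here, and the lists were counted and summed without them. Pycr3 is listed in the annotation as Pycrl. The members and lists were chosen with earlier results of these data known. Plots were drawn with matplotlib 3.10.9.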

Additional observations from a re-analysis of the deposited data

How the results depend on the processing

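Over the 24 fold changes of the 8 genes given above, the alternatives gave 455 values: 418 kept direction and side of the threshold, 22 lost a call, 13 gained a call and 2 changed sign. Leaving out each library in turn moved the number of the 8 genes called from 0 to 5 in OAT-1746 against CTR, from 0 to 4 in COMB against OAT-1746 and from 0 to 3 in the interaction. All genes called then ran from 0 to 3617, from 5 to 4033 and from 0 to 2734 in these comparisons, and from 0 to 52 in COMB against anti-PD-1.

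With the replicate block, 0 of the 8 genes and 2 of all genes were called in COMB against OAT-1746 and 0 of all in the interaction. Deviations from the group mean of libraries with the same replicate number correlated at -0.349 to 0.0999. In a group of 2 libraries the deviations mirror each other, so replicates 1 and 2 repeat the same value between such groups. These few values cannot decide whether replicate numbers stand for pairs. In fits of only the groups compared, COMB against OAT-1746 gave 0 of the 8 and 30 genes, COMB against CTR 5 genes and COMB against anti-PD-1 2 genes. DESeq2 gave 1996 genes and 1 of the 8 in OAT-1746 against CTR, 14 genes in anti-PD-1 against CTR, 35 in COMB against CTR, 47 in COMB against anti-PD-1, 3062 in COMB against OAT-1746 and 1025 with 1 of the 8 in the interaction. Limma with voom gave 428 genes in the interaction, 35 in COMB against anti-PD-1 and 2 in COMB against CTR, and no low-count filter gave 146, 2 and 2 there and 587 in OAT-1746 against CTR. The interaction gave 18 genes with all gene types and 24 with library size only, which moved the median of all genes there to -0.11. The causes were not tested.

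Among the 24 fold changes counted above, signs turned in 2 cases. In OAT-1746 against CTR, Nos2 was -0.15 without OAT-1746 replicate 1, with a range of -0.15 to 0.68 over single libraries left out. In anti-PD-1 against CTR, Nos2 was -0.19 without anti-PD-1 replicate 2, with a range of -0.19 to 1.96.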

Other observations

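Among 9417 genes with a mean of at least 5 CPM, those whose log2 CPM followed Nos2 most closely over the 9 libraries were Uvrag (Pearson r 0.981), Fbxo7 (0.948), Rab2a (0.941), Tgm1 (0.925) and Procr (0.923). Uvrag spanned 87.2 to 124 CPM, a far narrower range than Nos2. Of the other 7 genes of this report, Slc7a2 (0.608, rank 854 of 9417), Ass1 (0.595, rank 947) and Oaz1 (0.592, rank 968) followed Nos2 most closely, and Slc7a1 was the only one below 0, at -0.174. These correlations are descriptions of 9 libraries in 4 groups.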
